A study of Caenorhabditis elegans with 4 samples.

Results

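The 1163 regions on chromosome III make up 17.4% of the 6672 regions that the authors listed for the homeodomain protein CEH-30 of Caenorhabditis elegans. They were taken as every line of the combined list placed on III, and each was assigned by its midpoint to the left arm (below 3.722 Mb), the centre (3.722 to 10.340 Mb) or the right arm (above 10.340 Mb). The left arm held 242 regions, the centre 604 and the right arm 317. All positions are 1-based on WormBase release WS180, and the span of III was counted to the end of its last region, at 13.78 Mb.

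The list came from chromatin immunoprecipitation sequencing (ChIP-seq) of worms of strain OP120, labelled as hermaphrodites and grown at 20 °C. They carried the allele unc119(ed3) and the transgene wgIs120, in which ceh-30 is joined to TY1, EGFP and FLAG tags beside a copy of unc119. Late embryos were fixed with 2% formaldehyde, and the tagged protein was recovered from sheared chromatin with a polyclonal goat antibody against GFP. The labels give 2 samples of precipitated DNA and 2 of input DNA, all from this strain, so each group carries both the unc119(ed3) allele and the transgene. The transgene was introduced by biolistic transformation, and the labels describe no worms without the tag. Chromatin that the antibody recovers without the tagged protein cannot be told apart here from chromatin bound by it.

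CEH-30 belongs to the Bar family of homeodomain transcription factors, which bind DNA through a short helical domain, and it is best known for keeping the male-specific CEM sensory neurons alive by restraining programmed cell death. Autosomes of this worm have a centre with little recombination and many conserved genes, between arms that recombine more and hold more repeats. The borders used here are those of a known recombination map of III; the release on which that map was drawn is not given in the sources used here. A ChIP-seq region is a stretch where precipitated DNA exceeded input DNA, and the caller named in the list, PeakSeq, reports its borders with a q-value, which is a p-value corrected for the number of stretches tested.

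In the text below, strength is the −log10 of the authors' q-value, so that a larger number is a smaller q-value. The list holds 1 value per region over all samples, so the spread between replicates is not known, and neither is the read depth behind a region. Intervals are 95% intervals of counting (exact Poisson for densities, Wilson for shares, order statistics for medians). Neighbouring regions are not independent, so these intervals are likely too narrow, and no difference between zones or chromosomes was tested. The sequence, genes and gene parts under the regions were not analysed here.

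The left arm of III was sparser than the rest of the chromosome. It held 65.0 regions per Mb (57.1 to 73.7). The centre held 91.3 per Mb (84.1 to 98.8) and the right arm 92.1 per Mb (82.3 to 102.8), and the intervals of these latter zones do not reach that of the left arm. The centre was 1.40 times and the right arm 1.42 times as dense as the left arm, while the centre stood at 0.99 times the right arm. Chromosome III thus had no common arm value: its left arm took 20.8% of the regions on 27.0% of the span, and its right arm 27.3% on 25%.

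**Figure D1:**
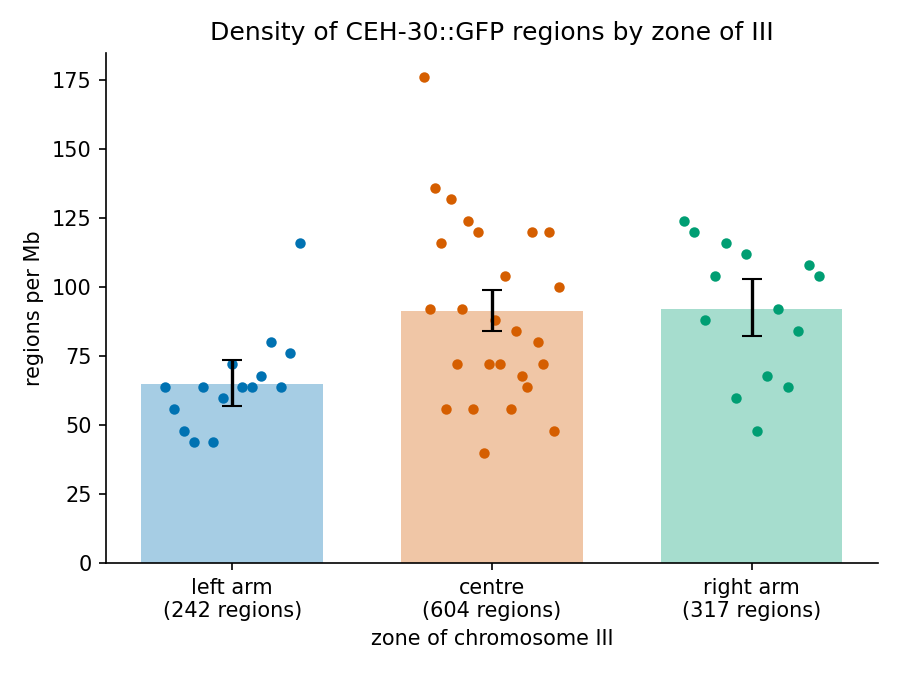
Regions per Mb (vertical axis) in the left arm, centre and right arm of III. Bars are the whole zone with 95% Poisson intervals, and points are full 250 kb bins, scaled to 1 Mb and drawn in order along each zone. The bars stand at 65.0, 91.3 and 92.1 per Mb, and the highest point of the left arm is its last bin.

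The rise lay close to the left border. In 250 kb bins, the 14 bins up to 3.5 Mb each held between 11 and 20 regions, with a median of 16. The next 5 bins beyond 3.5 Mb held between 23 and 44, with a median of 29, and the bin after them held 14. The start and the end of this run were chosen after seeing the bins. Its lack of overlap with the earlier bins follows from that choice and is no test of a rise. Beyond 3.5 Mb the bins varied widely, from 10 to 44 with a median of 23 over 41 bins.

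Within the left arm, the 3.5 Mb nearest the chromosome end held 217 regions (62 per Mb), and the last 0.222 Mb before the border held 25 (112.6 per Mb). Within 200 kb of the left border there were 22 regions before it and 38 after it, and within 500 kb there were 45 and 67. At the right border no such step was seen within 200 kb, with 23 regions on each side, while the wider 500 kb flanks held 39 before the border and 60 after it. The regions that flank the left border lay at 3716172 to 3716444 (strength 5.11) and 3734083 to 3734225 (strength 2.15). Those flanking the right border were only 29 and 9 bp wide, at 10339605 to 10339633 (strength 2.37) and 10340867 to 10340875 (strength 2.31), and they belonged to the same cluster.

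In 1 Mb bins the lowest counts were the 53 and 60 regions of the first and second bin, followed by 68 in the bin from 12 to 13 Mb of the right arm and 69 in the third bin. The bins from 3 to 6 Mb held 108, 100 and 105 regions. A lower stretch followed from 6 to 10 Mb, with between 72 and 84 per bin, and the bins from 10 to 12 Mb held 108 and 98. The centre of III was therefore not uniform: its left side was denser than its middle, and density was high again in the megabases around and beyond its right border.

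Covered length was also lowest in the left arm, while the centre was above the right arm. Regions covered 11.7 kb per Mb of the left arm, 19.0 kb per Mb of the centre and 16.5 kb per Mb of the right arm. The centre also held 6 regions wider than 1 kb, against 1 in each arm. These were 0.993% of the regions of the centre, 0.413% of the left arm and 0.315% of the right arm. The intervals of these shares overlap, and the background over the whole list was 0.959%. Over all of III, 226.0 kb was covered, or 1.64% of the span.

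Strength differed little between the zones. The median strength was 3.97 in the left arm (3.66 to 4.31), 4.01 in the centre (3.74 to 4.27) and 3.88 in the right arm (3.41 to 4.11), and all of these intervals overlap. The quartiles were 2.94 and 6.41 in the left arm, 2.79 and 6.23 in the centre, and 2.80 and 6.01 in the right arm. The sparse left arm thus held regions about as strong as those of the denser zones.

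The best 10% of the q-values of the whole list (q-value of at most 4.78e-10, strength of at least 9.32) included 137 regions of III, or 11.8% of its regions (10.1% to 13.8%), against a background of 10% over the whole list. The share was higher on I, at 13.5% (11.7% to 15.5%), and nearly equal on II, at 11.5%. On IV, V and X it was between 7.26% and 7.78%. By zone of III the share was 12.8% in the left arm (31 regions), 11.8% in the centre (71) and 11.0% in the right arm (35), again with overlapping intervals. Per Mb there were 8.33 such strong regions in the left arm, 10.7 in the centre and 10.2 in the right arm.

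At the weak end, 352 regions of III (30.3%) had a q-value between 0.001 and 0.01, the limit of the list, against 38.8% of all listed regions. A q-value below 1e-05 was found for 417 regions of III (35.9%), against 29.5% of the whole list. Below 1e-20 there were 18 regions on III, or 1.55% against 1.62%, and below 1e-30 there were 4, or 0.344% against 0.615%. III thus had a smaller share of borderline regions and a larger share of middle strength, but not a larger share of the very strongest regions.

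The 4 strongest regions of III all lay in the centre, within a stretch of 811.5 kb from 8242737 to 9054219 that held 73 regions in all. They were the only regions of III with a strength above 30. The first, at 9050147 to 9054219, was 4073 bp wide and had a strength of 169.0, and it ranked 4 in the whole list. The second, at 8443401 to 8447231, was 3831 bp wide with a strength of 79.9 and ranked 14. The remaining ones were narrower: 462 bp at 8242737 to 8243198 (strength 40.2) and 1094 bp at 8416885 to 8417978 (strength 39.0).

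The next 6 by q-value were spread over all 3 zones and lay close together in strength. In the left arm they were at 349302 to 350343 (1042 bp, strength 29.2) and at 3104603 to 3104982 (380 bp, strength 28.2). In the centre they were at 4237607 to 4238133 (527 bp, strength 28.5) and at 7446314 to 7447878 (1565 bp, strength 27.8). In the right arm they were at 10989330 to 10990010 (681 bp, strength 25.2) and at 12612287 to 12613031 (745 bp, strength 23.8). The strongest region of the centre thus far exceeded the strongest of either arm, although the zone medians were alike. Among the 100 strongest regions of III, 25 lay in the left arm, 48 in the centre and 27 in the right arm, close to the zones' shares of all regions.

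The surroundings of the strongest regions differed. The top region had 9 others within 50 kb, with a median strength of 3.46 and none above 7.16, so none came near its own strength. The strongest of these neighbours was still above the third quartile of III, 6.22. The second and the fourth lay 27.9 kb apart, midpoint to midpoint. Between them were 4 other regions, with strengths of 9.43 (310 bp wide), 3.42, 3.39 and 17.04 (285 bp wide) in the order from left to right. Counting each other, the second and the fourth each had 3 regions of the best 10% within 50 kb. The third had 7 neighbours, none of which was stronger than 8.96.

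**Figure D2:**
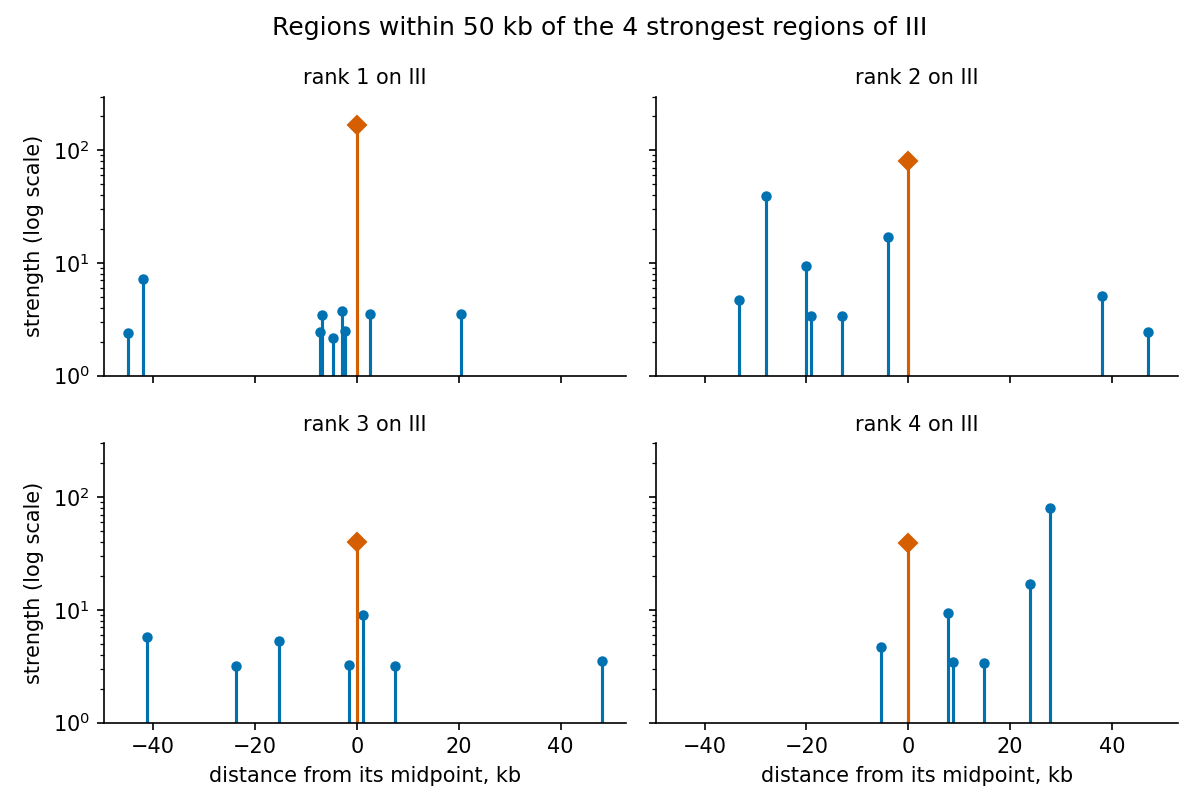
Strength (vertical axis, log scale) of regions within 50 kb of each of the 4 strongest regions of III, against the distance of midpoints in kb. Orange diamonds are the strongest regions and blue points the others. The region of rank 1 has no neighbour above 7.16, while those of rank 2 and rank 4 appear in each other's panel.

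Regions of III were mostly short. Their middle 50% ranged from 59 to 270.5 bp in width. The median was 141 bp in the left arm (113 to 166), 164 bp in the centre (148 to 183) and 149 bp in the right arm (122 to 176), with overlapping intervals. Regions under 20 bp made up 12.8% of III, or 149 regions, against a background of 11.8% over the whole list, and 20 of them were a single base wide. They made up 10.6% of the centre, 14.5% of the left arm and 15.8% of the right arm.

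These very short regions were also weak. Their median strength was 2.74, against 4.29 for the wider regions of III, and the strongest of them reached 5.04. None was among the best 10% of the list. At the other end, 96 regions of III were 400 bp or wider, which is 8.25% (6.81% to 9.98%), against a background of 11.2%. The narrowest of the 137 strong regions was 206 bp wide, and the strong regions had a median width of 379 bp and held 31.0% of the covered bases.

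Strength rose with width in each zone. Across regions, Spearman's rho was 0.68 in the left arm, 0.72 in the centre and 0.71 in the right arm, and 0.71 over all 1163 regions. Pearson's r was 0.79 over III, and it was 0.71, 0.86 and 0.64 in the zones from left to right. With the log10 of the width it was 0.38 over III, and 0.51, 0.35 and 0.53 in the zones. The centre thus went from the highest to the lowest of the zones. The caller took both measures from the same reads, so these coefficients are given as a description. In the class from 200 to under 400 bp, the median strength was 7.30 in the left arm (6.35 to 8.36), 6.59 in the centre (5.98 to 7.16) and 6.37 in the right arm (5.59 to 7.33). At like width the zones thus overlapped as well. In the class from 20 to under 100 bp the left arm stood at 3.23 (3.05 to 3.70) and the centre at 2.84 (2.70 to 3.14), and these intervals overlap at their ends.

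**Figure D3:**
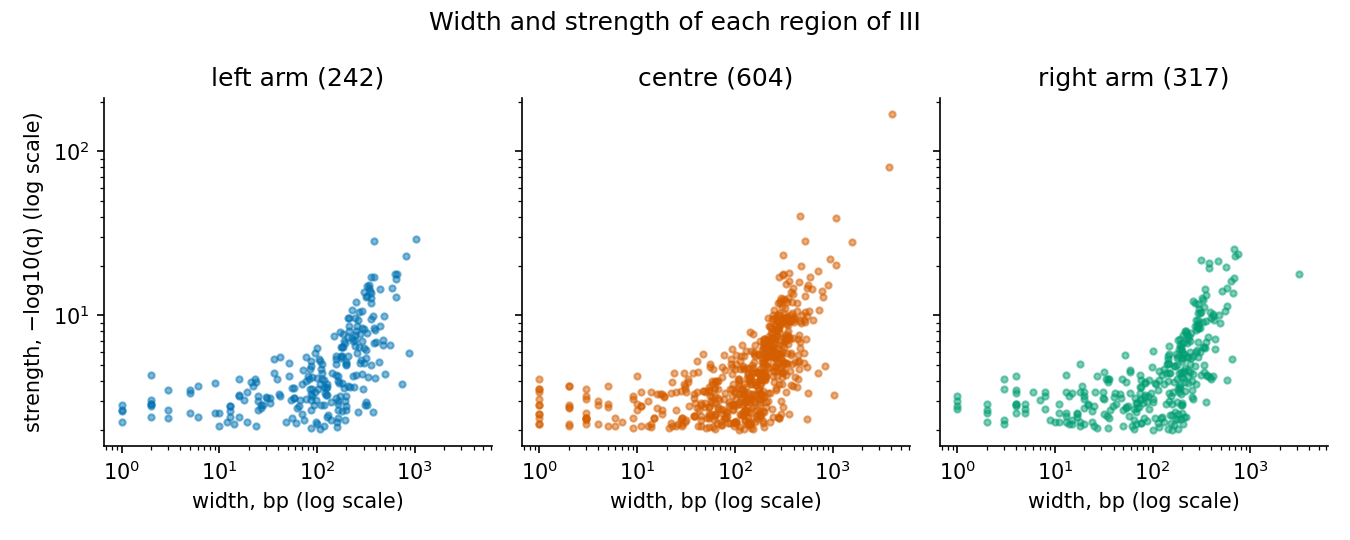
Width in bp (horizontal axis, log scale) and strength (vertical axis, log scale) of each region of III, in a panel for each zone. Points are single regions. The 2 points of the centre above a strength of 50 are the strongest regions of III, at 79.9 and 169.0, and the isolated wide point of the right arm is the last region of the chromosome, 3121 bp wide.

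Set against other chromosomes, III combined the narrowest median width with the highest median strength. Its median width of 157 bp (145 to 170) was the lowest of the 6 chromosomes, next to 159.5 bp on II (149 to 168), whose interval overlaps it. I had 181.5 bp, and X had the highest with 197 bp. Its median strength of 3.94 (3.79 to 4.09) was above 3.74 on I (3.61 to 3.91) and 3.58 on II (3.43 to 3.74), and the interval of III overlaps that of I but not that of II. IV, V and X had medians between 3.09 and 3.26. Among the stronger regions I stood above III, with a 90th percentile of strength of 10.39 against 9.71.

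The higher median strength of III was also present among regions of like width. In the class from 200 to under 400 bp, which held 350 regions of III, the median strength was 6.74 (6.23 to 7.10). It was 6.14 on II (5.57 to 6.70), 5.60 on I (5.21 to 6.19), 4.78 on V and 4.39 on IV, and X was lowest with an interval of 3.79 to 4.31. In the class from 100 to under 200 bp the medians were 3.63 on III, 3.35 on I, 3.29 on II, and between 2.77 and 2.98 on IV, V and X. III had the highest median of the 6 chromosomes in 5 of 6 width classes. The exception was the class over 1 kb, in which 10 regions of I had a median of 45.5 and 8 of III had a median of 28.5. In the class under 20 bp, III and II both stood at 2.74. In each class from 20 to 1000 bp the interval of III lay above those of IV, V and X, while in all of these it overlapped that of at least I or II.

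**Figure D4:**
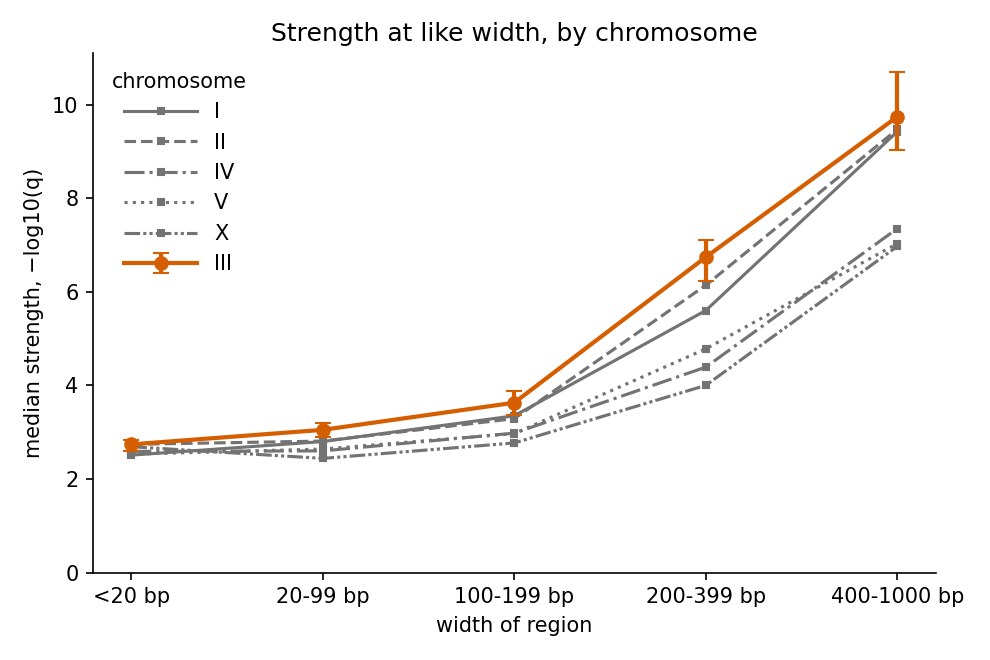
Median strength (vertical axis) of regions in 5 width classes (horizontal axis) on each chromosome. III is in orange with 95% order-statistic intervals, and the other chromosomes are grey. III is the uppermost or joint uppermost line in all 5 classes, with 6.74 from 200 to under 400 bp against 6.14 on II and 4.39 on IV.

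Among I, II and III, the 3 densest chromosomes, III had the smallest share of empty windows. It held 84.4 regions per Mb (79.6 to 89.4), 1.32 times the density of the other chromosomes together, and I came closest with 82.3 (77.8 to 87.0). Of 276 windows of 50 kb, 12 were empty (4.35%), against 4.67% on I, 8.82% on II and 17.7% on V. The fullest window of III held 13 regions, against 27 on I and 20 on II. The variance of the window counts was 1.66 times their mean on III, 2.05 times on I and 2.00 times on II. IV (1.55) and X (1.52) were lower, and V (2.70) was higher. Over full bins of 1 Mb this ratio was 4.23 on III, 4.20 on II, 3.98 on V, 2.88 on I, 2.30 on IV and 0.777 on X. By these ratios, counts on III varied more than those on I between megabases, and less between 50 kb windows. The ratios over 1 Mb rest on only 13 full bins of III and 14 of I, and no interval was computed.

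Close neighbours were about as common on III as on I and II. Another midpoint lay within 5 kb of 739 regions of III, or 63.5% (60.7% to 66.3%), against a background of 60.1% over the whole list. I had 65.3% and II had 61.4%. Within III the share was 67.9% in the centre (64.1% to 71.5%), 63.4% in the right arm (58.0% to 68.5%) and 52.9% in the left arm (46.6% to 59.1%). The median distance to the nearest neighbour was 2614 bp in the centre, 3310 bp in the right arm and 4335 bp in the left arm.

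Since a denser zone brings neighbours closer, these distances were set against the mean spacing of each zone. The median distance was 0.24 of the mean spacing in the centre, 0.28 in the left arm and 0.30 in the right arm. The left arm, with the fewest close neighbours, was therefore not the least crowded relative to its own density. The centre and the right arm had almost the same density, and the centre had the shorter median distance. Over all of III the median distance was 0.25 of the mean spacing, against 0.23 in the whole list. The list pools chromosomes of unlike density, so its ratio is not a like reference. The single chromosomes ranged from 0.20 on V to 0.26 on X, and III lay within that range.

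**Figure D5:**
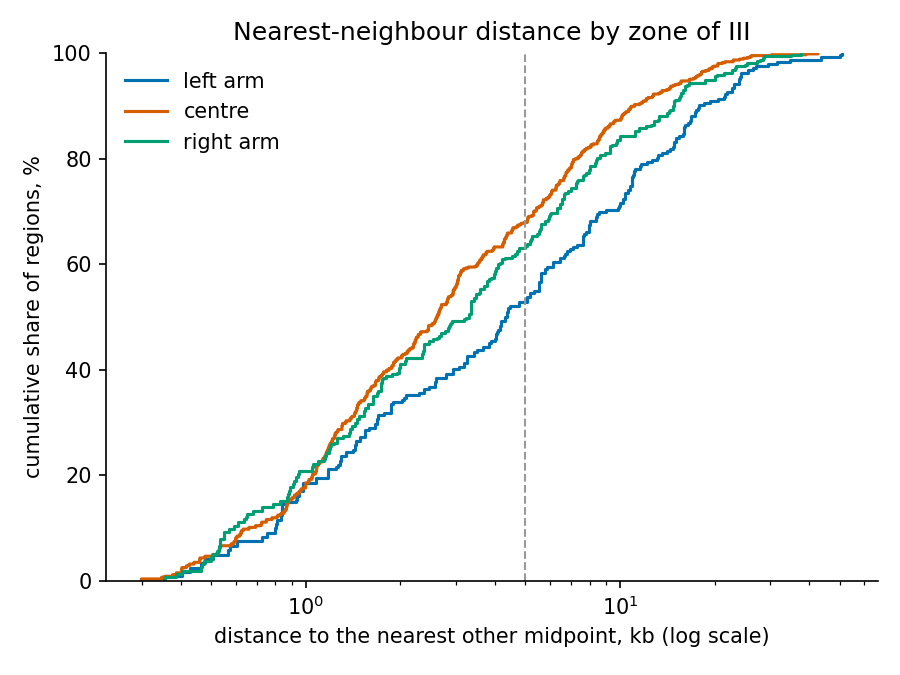
Cumulative share of regions (vertical axis, %) against the distance to the nearest other midpoint (horizontal axis, kb, log scale) for the left arm, centre and right arm of III. The dashed line marks 5 kb, where the lines stand at 52.9%, 67.9% and 63.4% in that order.

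Joined across gaps of at most 2 kb, 493 regions (42.4%, 39.6% to 45.3%) fell into 200 clusters. The background over the whole list was 38.4%, with 41.9% on I and 40.6% on II. On III, 670 regions stood alone. There were 137 pairs, 43 clusters of 3 regions and 20 of 4 or more. The share of regions in clusters was 45.0% in the centre (41.1% to 49.0%), 42.3% in the right arm (37.0% to 47.8%) and 36.0% in the left arm (30.2% to 42.2%). Clusters were small, with a median extent of 1674 bp.

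Regions in clusters were about as strong as single ones. The median strength was 3.93 in clusters and 4.0 among single regions (3.75 to 4.15). The best 10% of the list made up 10.4% of the single regions, 11.3% of those in pairs, 15.5% of those in clusters of 3 and 17.8% of those in larger clusters. Clusters of 4 or more regions thus held a larger share of strong regions, 16 of 90 against 70 of 670 single ones. No interval was computed for these shares. The median strength in the clusters of 4 or more was 3.65 (3.14 to 4.29). This was the lowest of these groups, but its interval overlaps that of single regions. The median was lowest in the centre, at 3.12 (2.64 to 3.93, 50 regions). It was 4.34 in the left arm (2.95 to 6.86, 17 regions) and 4.27 in the right arm (3.39 to 7.81, 23 regions), and these intervals overlap. In both arms it was the highest of these groups by a small margin, above 4.30 for pairs in the left arm and 4.05 for single regions in the right arm. In the left arm the share of strong regions did not rise steadily with cluster size. It was 14.8% for single regions (23 of 155), 7.69% in pairs (4 of 52), 0% in clusters of 3 (0 of 18) and 23.5% in larger ones (4 of 17). The shares of the larger sizes thus rest on few regions.

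The strongest region of each cluster is called its leader here, so that its companions are weaker by definition. Leaders had a median strength of 5.95 and the other 293 regions one of 2.99, a gap that the choice of leaders fixes. The leader was also the widest of its cluster in 160 of 200 clusters (80%). A leader among the best 10% of the list was found in 54 clusters, whose other regions had a median strength of 3.74, and 13 of these others (12.9%) were themselves among the best 10%. Over the companions in all clusters the share was 4.44%. A companion of a leader outside the best 10% cannot belong to it, so the choice of leaders lowers that value. The 11.8% over all regions of III includes leaders and single regions, so it is not a like comparison either. In all, 12 of 200 clusters held 2 or more regions of the best 10%.

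The largest cluster surrounded the strongest region of III. It held 7 regions from 9044810 to 9054880, of which the leading one had a strength of 169.0 and the other 6 had strengths between 2.17 and 3.74. Of those 6, 5 lay to the left of it and 1 to the right. The strongest region of III thus had only weak companions in its cluster.

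The other large clusters were made differently. A cluster of 6 regions at 12611427 to 12617110 in the right arm, covered to 43.3%, held 2 of the best 10%, with strengths of 23.8 and 10.6, and its other members had strengths from 2.54 to 4.64. A cluster of 6 at 3862980 to 3869673 in the centre had a leader of 308 bp with a strength of 23.3, a second region of 8.37 and 4 members under 3. In a cluster of 5 at 5937968 to 5944010 in the centre, strengths were 3.93, 9.32, 13.2, 2.45 and 8.82 from left to right. Its median strength was 8.82. A cluster of 5 at 13717426 to 13722280 near the right end held no strong region, and its highest strength was 5.59. A cluster of 5 at 204291 to 206991 in the left arm had the same number of regions on a shorter extent of 2701 bp, and its strengths ranged from 2.11 to 5.50.

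The 5 most crowded windows of 50 kb lay in the centre and the right arm. The windows at 3.85 to 3.90 Mb, 5.90 to 5.95 Mb and 7.70 to 7.75 Mb each held 13 regions, the window at 10.30 to 10.35 Mb held 12 and that at 11.90 to 11.95 Mb held 11. Over all of III the mean was 4.21 per window. A window with 10 or more regions was found 6 times with its middle in the centre, 2 times in the right arm and 0 times in the left arm, where the fullest window held 9.

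In 4 of these 5 windows the median strength was below the 3.94 of all of III. The median strengths were 2.63, 4.69, 2.83, 2.62 and 3.61 in the order given. Of their 62 regions, 6 (9.68%) were among the best 10% of the list, against 11.8% of III and the background of 10%. The window at 5.90 Mb had the highest median and contained the cluster of 5 described above. The window at 10.30 Mb, which spans the right border, had the narrowest regions, with a median width of 54.5 bp.

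Of the 5 longest stretches of III without a region, 3 lay in its left arm. The longest gap between regions was 109.4 kb, from 1309390 to 1418797, and the next was 103.1 kb, from 668672 to 771752, both in the left arm. Gaps of 94.6 kb (9861690 to 9956291) and 91.7 kb (6710191 to 6801938) followed in the centre, and a gap of 77.5 kb (235485 to 312968) in the left arm. Of 28 gaps above 50 kb, 11 lay in the left arm, 12 in the centre and 5 in the right arm. An empty stretch is one without a listed region, which at unknown depth does not show absence of binding.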

How the data were processed

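The deposited data used here were 1 list of regions named as combined, for 2 samples of immunoprecipitated and 2 of input DNA. Per the file headers, coordinates refer to WormBase WS180, and the source column names PeakSeq. Which aligner, PeakSeq version or filter was used, and how the replicates were merged, is not given in the sources used here. The authors deposited a q-value (an adjusted p-value) per region in 2 fields, which differed in 0 regions, and 0 regions had a q-value of 0.01 or more. The depth is unknown. A q-value depends on depth as well as on enrichment, so strength was compared within this list only.

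Widths, midpoints, nearest neighbours, gaps and −log10 of the q-value were computed with Python 3.11.15, numpy 2.4.6, pandas 2.3.3 and scipy 1.17.1; figures used matplotlib 3.10.9. Functions were tested on simulated data. Regions named in the text are those with the 10 smallest q-values, the 5 with the greatest width, the strongest and the widest in each zone, those beside each border, the 5 clusters with most regions (ties by extent), the 5 most crowded windows on a fixed grid and the 5 longest gaps; regions outside this rule were chosen after their values were seen. The zones, measures and rules were chosen with earlier results of these data known. The cut at 3.5 Mb and the run of 5 bins beyond it were chosen after seeing the bins. Intervals cover counting error only. No sequence is shown, since no genome of WS180 was used here.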

Additional observations from a re-analysis of the deposited data

How the results depend on the processing

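The density ratio of the centre to both arms together was 1.17 and kept within its counting interval (1.04 to 1.31) under 11 of 15 alternatives. It fell to 0.99 with 3 equal parts of the span, which put the dense stretch after 3.5 Mb into the left part, and it was 1.36 in covered bases. Set against each arm alone, an alternative added after seeing the data, it was 1.40 for the left arm and 0.99 for the right arm. The left arm had the lowest value of the 3 zones under all 13 alternatives of its density, including 3 equal parts (78.8, 83.8 and 90.6 per Mb). Among the 13 is a left border at 3.5 Mb, chosen after seeing the bins. It moves the dense stretch out of the left arm, so its outcome follows from that choice. The same setting is also among the 11 of 15 above. The difference of the centre from both arms was 0.11 in median strength (0.05 to 0.37 over 10 alternatives) and 16 bp in median width (6.5 to 35.5 bp over 10), and each stayed within its interval, which includes 0. The share with a neighbour within 5 kb was 9.0 percentage points higher in the centre than in the arms, and 0.1 points with 3 equal parts; the other 12 alternatives gave 4.3 to 11.0 points. The density of III was 1.32 times that of the other chromosomes together, 1.62 times for the best 10% of the q-values and 1.13 times in covered bases. The last 2 measures did not set III apart from I. I held 166 regions of the best 10% on 14.972 Mb, against 137 on 13.781 Mb of III. Regions covered 18.6 kb per Mb of I and 16.4 kb per Mb of III. The causes were not tested. Clusters held 42.4% of regions with gaps of up to 2 kb, 25.1% with 1 kb and 64.5% with 5 kb, since the limit sets the share. No paired analysis was possible because each region has a single q-value for all samples, and the omission of single replicates was not run for that reason.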

Other observations

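The regions below were chosen after their values were seen, except the widest ones, and they are given as values only. The last region of III, at 13778112 to 13781232, was the third widest of the chromosome (3121 bp) and the widest of the right arm, yet it ranked 25 on III by q-value (strength 17.9), and its nearest neighbour was 8448 bp away. The first region, at 66229, was 1 bp wide and had a strength of 2.59, so the ends of the listed regions on III differed in both measures. Of the 8 regions wider than 1 kb, 7 had strengths from 17.9 to 169.0. The exception, at 4435178 to 4436225 in the centre, was 1048 bp wide with a strength of 3.27 and ranked 736 on III. In the opposite direction, the region at 3104603 to 3104982 in the left arm was 380 bp wide and ranked 7, with no other midpoint within 9894 bp.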
